A study of Homo sapiens with 11 samples.

Results

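Vehicle-treated U2OS cells were compared with vehicle-treated MDA-MB231 cells to describe how the 2 lines differed before any drug was given. U2OS is a human osteosarcoma line, and MDA-MB231 is a human breast cancer line of basal type per the labels. The comparison used 3 of the 11 RNA-seq libraries of the study, chosen as those without a drug: 1 U2OS library and 2 MDA-MB231 libraries. All 3 carry the treatment label DMSO, the drug vehicle. MDA-MB231 replicate 2 is also described as not treated and is the only vehicle library with a duration, 8 h, in its title. Both lines were cultured in DMEM with 10% serum in 10 cm dishes, and total RNA was taken before the dishes were confluent. The other 8 libraries hold 1 library per line for each of 4 drugs given for 8 h: doxorubicin at 1 µM, etoposide at 20 µM, methyl methanesulfonate (MMS, an alkylating agent) at 40 µg/mL and paclitaxel at 0.2 µM. The study itself asked about drug responses, so the difference between the lines is a comparison that its design allows rather than its stated purpose.

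Osteoblasts lay down a bone matrix of fibrillar collagens and SPARC under transcription factors such as RUNX2 and SP7, mineralise it with alkaline phosphatase, and answer to bone morphogenetic proteins (BMPs) and WNTs. Basal breast cancers are named for genes of the outer epithelial layer of the breast duct, among them basal keratins, EGFR and laminin-332, and they lack the luminal programme of ESR1, PGR and GATA3. As background on these particular lines, U2OS maintains its telomeres by the alternative lengthening pathway without telomerase, whereas MDA-MB231 carries mutated NF2 and a deletion at CDKN2A. Each line grows from a single tumour, so a difference between them is a difference between 2 tumours' cell lines and not between bone and breast.

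The reads assigned to genes came to 18959126 in the U2OS library, and to 25506368 and 16774156 in MDA-MB231 replicates 1 and 2. Reads aligned to several places made up 32.7% of the U2OS library and 30% and 30.4% of the MDA-MB231 libraries. Levels are given as CPM, reads scaled to library size in the usual counts-per-megaread unit and adjusted between libraries by the TMM method. The MDA-MB231 libraries were not duplicates of each other, with a chi-square statistic per degree of freedom of 26.7 over genes, against 253 and 202 for U2OS with each of them. Only 194 of 10817 genes, or 1.79%, lay 2-fold apart between the 2 MDA-MB231 libraries. The labels do not tell whether the libraries are from separate cultures, so the p-values measure the spread between these samples alone, which may be technical. The spread came from the MDA-MB231 pair, and the lone U2OS library was assumed to vary like them. In bulk RNA, fewer cells expressing a gene and less RNA per cell cannot be told apart.

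The lines differed over much of the transcriptome. At an edgeR quasi-likelihood adjusted p under 0.05, which is what "called" means here, 6281 of 14749 genes tested (42.6%) differed, of which 3357 (22.8%) were higher in U2OS and 2924 (19.8%) were lower. A stricter rule of size asked for at least a 2-fold difference in the same direction against each MDA-MB231 library separately, with 0.5 added to each CPM and a larger CPM of at least 5. It kept 2961 of 11816 genes (25.1%), with 1547 higher in U2OS (13.1%) and 1414 lower (12%), and 2954 of them were also called. A further 1047 genes passed the rule against 1 MDA-MB231 library but not the other and were set aside. The median log2 fold change over all genes tested was 0.02. Log2 fold changes below are U2OS over MDA-MB231, with their SE, from 1 U2OS and 2 MDA-MB231 libraries. The gene lists below and their members were chosen with earlier results of these data known. Their shares called therefore describe the lists and do not test them.

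**Figure D1:**
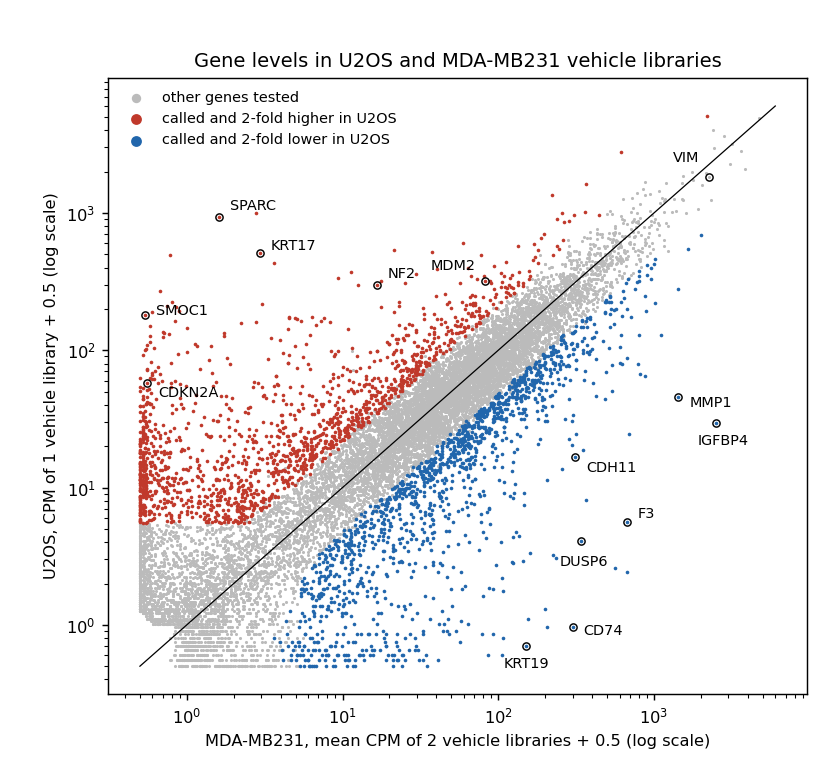
Each point is 1 of the genes tested, placed by its mean CPM plus 0.5 in the 2 MDA-MB231 vehicle libraries (x axis, log scale) and its CPM plus 0.5 in the U2OS vehicle library (y axis, log scale). Red points were called and 2-fold higher in U2OS, blue points were called and 2-fold lower, the line marks equal levels, and circled genes are named. SPARC and SMOC1 sit far above the line, VIM close to it, and KRT19 and CD74 far below it.

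Most of the largest differences were between a gene that was on in 1 line and nearly silent in the other. KLHL9, a substrate adaptor of a ubiquitin ligase, had 1220 reads (62 CPM) in U2OS, against 0 and 0 reads in the MDA-MB231 libraries, which makes it at least 860-fold higher when 3 reads over the pair are taken as the limit of detection. By the same floor KCTD15 was at least 690-fold higher, BMP5, a bone morphogenetic protein, at least 534-fold, the synaptic adhesion gene LRRC4C at least 534-fold, and the folate carrier SLC19A1 at least 483-fold. TRIM58, NUDT11, ZNF711, CSMD1, the let-7 inhibitor LIN28B and the membrane glycoprotein podoplanin (PDPN) were also at 0 reads in both MDA-MB231 libraries and had bounds from 281 to 419-fold. SMOC1, a secreted SPARC relative that modulates BMP signalling, had 3529 reads in U2OS, against 2 and 0 in MDA-MB231 (3732-fold, 95% counting interval 1032 to 30830). All 12 of these genes were higher in U2OS in each of the 4 drug pairs as well.

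The genes lowest in U2OS had at most 9 reads there. HLA-DRB1, a class II antigen-presenting chain, had 0 reads in U2OS, against 974 and 494 in MDA-MB231 (at least 226-fold lower), although near-identical HLA genes share reads and its count is uncertain. PHYHD1 also had 0 reads in U2OS, against 705 and 321 in MDA-MB231 (at least 156-fold lower). KRT19, a keratin of simple epithelia, had 0.203 CPM in U2OS, against 167 and 131 CPM in MDA-MB231 (log2 fold change -9.47 ± 0.41, edgeR adjusted p = 9.98e-07). ESAM, an adhesion molecule of endothelial junctions, had 0.457 CPM in U2OS, against 205 and 205 CPM in MDA-MB231. The nucleotide transporter SLC17A9 had 2 reads in U2OS, against 2751 and 1639 in MDA-MB231 (1038-fold lower, 95% counting interval 287 to 8572). FBP1, an enzyme of glucose synthesis, had 1 read in U2OS, against 1078 and 619 in MDA-MB231. CLIC6, B3GNT7, GPR110 and the cystatin CST4 likewise had 1 read each in U2OS. These 12 lowest genes, with SPDEF and CD74 described further on, were lower in U2OS in all 4 drug pairs.

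Genes of bone matrix separated the lines, but 10 of the markers listed had at most 3 reads in every library. Of 32 osteoblast and bone matrix markers, 19 had enough reads to be tested, and 12 were higher in U2OS, 3 lower and 4 not called (78.9% called, median log2 fold change 2.28). SPARC, the matrix glycoprotein osteonectin, had 927 CPM in U2OS, against 1.49 and 0.74 CPM in MDA-MB231 (log2 fold change 9.61 ± 0.31, edgeR adjusted p = 7.69e-07). Lumican (LUM), a proteoglycan that organises collagen fibrils, had 35.3 CPM in U2OS, against 0.393 and 0.802 CPM in MDA-MB231. ALPL, the alkaline phosphatase of mineralising cells, had 153 reads in U2OS, against 0 and 0 in MDA-MB231 (at least 108-fold higher). The chain of type I collagen COL1A1 had 48.2 CPM in U2OS, against 12.9 and 9.87 CPM in MDA-MB231 (2.07 ± 0.25), so the U2OS value stood above both MDA-MB231 values. Its partner COL1A2 was near absent in every library, with 0 reads in U2OS, against 8 and 1 in MDA-MB231. SPP1, which encodes the bone matrix phosphoprotein osteopontin, had 61 reads in U2OS, against 1 and 1 in MDA-MB231 (64.5-fold, 95% counting interval 17.1 to 545).

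The transcription factors of the lineage did not separate the lines in the same way. RUNX2, the master regulator of osteoblast formation, had 23.1 CPM in U2OS, against 34.3 and 31.5 CPM in MDA-MB231, and was not called (-0.51 ± 0.23, edgeR adjusted p = 0.107). Its CPM was thus lower in the osteosarcoma library than in each breast library, by a difference that did not pass the test. MSX1, a homeobox factor of craniofacial bone, had 196 reads in U2OS, against 1 and 1 in MDA-MB231. CDH11, known as osteoblast cadherin, ran the other way, with 16.1 CPM in U2OS, against 286 and 335 CPM in MDA-MB231 (-4.27 ± 0.25, edgeR adjusted p = 4.29e-06). SP7, DLX6, IBSP and TNFSF11 had 0 reads in all 3 libraries, and DLX5, BGLAP, POSTN, DMP1 and MEPE had at most 2 in each. These 9 genes were thus at or near 0 in both lines, beside the 12 members of the list that were higher in U2OS.

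**Figure D2:**
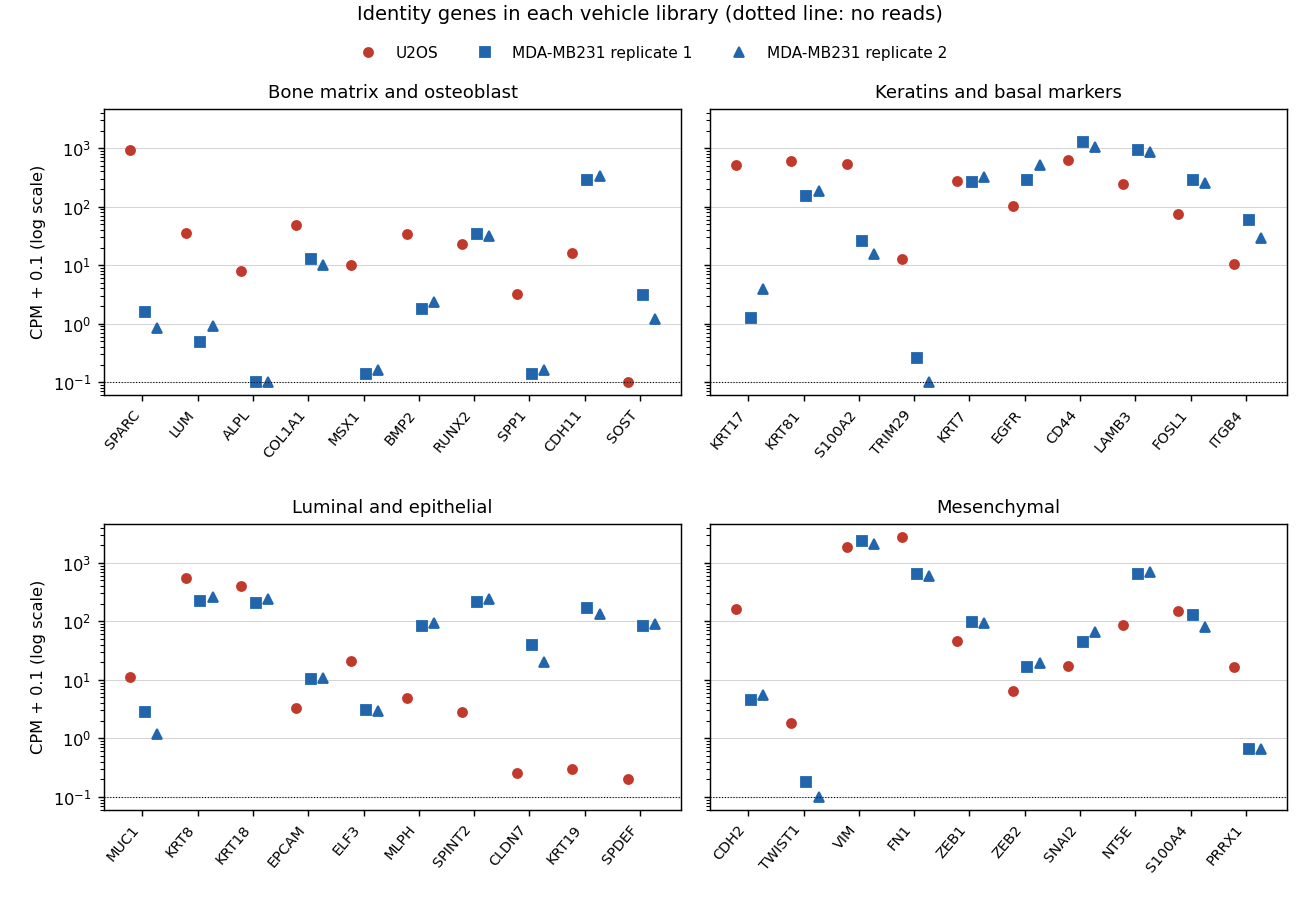
CPM plus 0.1 (y axis, log scale) of 40 identity genes in the U2OS vehicle library (red circles) and MDA-MB231 vehicle replicates 1 (blue squares) and 2 (blue triangles), in 4 panels of marker classes; a point on the dotted line had no reads. The MDA-MB231 points lie together for most genes, with SPARC and KRT17 far above them in U2OS, CDH11, KRT19 and SPDEF far below them, and RUNX2, KRT7 and VIM close.

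Other matrix genes were also mostly higher in U2OS. Of 25 collagens tested, 19 were higher, 4 lower and 2 not called (92% called, median 1.96). COL6A3, a chain of beaded-filament type VI collagen, had 318 CPM in U2OS, against 18 and 16.4 CPM in MDA-MB231 (4.20 ± 0.18, edgeR adjusted p = 9.98e-07). COL11A1, a fibrillar collagen of cartilage, had 58.9 CPM in U2OS, against 0.0787 and 0.309 CPM in MDA-MB231 (8.38 ± 0.43). COL5A3 and COL22A1 were at 0 reads in both MDA-MB231 libraries and were at least 180-fold and 166-fold higher in U2OS. COL8A1, a short-chain collagen of vessel walls, had 29.8 CPM in U2OS, against 243 and 347 CPM in MDA-MB231 (-3.31 ± 0.28), and was among the 4 that were lower. Laminins and other basement membrane genes split by chain, with 9 of 15 higher, 4 lower and 2 not called (86.7% called). LAMA1, the alpha chain of embryonic laminin, had 143 CPM in U2OS, against 3.46 and 4.44 CPM in MDA-MB231 (5.20 ± 0.23), and nidogen NID1, which links laminin to collagen IV, had 104 CPM in U2OS, against 0.236 and 0 CPM in MDA-MB231. A chain of laminin-332 ran the other way: LAMA3 had 10.9 CPM in U2OS, against 49.6 and 36.8 CPM in MDA-MB231 (-1.99 ± 0.28).

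Adhesion receptors followed in smaller numbers. Of 16 integrins tested, 6 were higher in U2OS, 3 lower and 7 not called (56.2% called). ITGA11, a collagen-binding subunit, had 276 reads in U2OS, against 1 and 0 in MDA-MB231 (584-fold, 95% counting interval 104 to 23140). ITGB8, which activates latent TGF-beta, had 64.3 CPM in U2OS, against 2.99 and 3.52 CPM in MDA-MB231 (4.31 ± 0.25). ITGB2, the beta subunit of leukocyte integrins, had 1.42 CPM in U2OS, against 59.8 and 60.6 CPM in MDA-MB231 (-5.40 ± 0.30), and ITGB4, the hemidesmosome subunit that binds laminin-332, had 10.3 CPM in U2OS, against 59.7 and 28.5 CPM in MDA-MB231. Among 25 cadherins and protocadherins tested, 12 were higher, 4 lower and 9 not called. CDH13, a cadherin anchored by a lipid tail, had 144 CPM in U2OS, against 0.393 and 0.617 CPM in MDA-MB231 (8.20 ± 0.28, edgeR adjusted p = 7.69e-07).

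BMP and WNT genes separated the lines by gene rather than by pathway. Of 36 BMP and TGF-beta genes tested, 18 were higher, 10 lower and 8 not called (77.8% called). BMP2 had 34.1 CPM in U2OS, against 1.69 and 2.28 CPM in MDA-MB231 (4.12 ± 0.32), and BMP7 was at 0 reads in both MDA-MB231 libraries and at least 223-fold higher in U2OS. The inhibitor-of-differentiation gene ID3, a direct BMP target, had 175 CPM in U2OS, against 4.05 and 7.71 CPM in MDA-MB231 (4.93 ± 0.31, edgeR adjusted p = 6.06e-06). Its relatives ID1, ID2 and ID4 were also called higher, but the ID2 call was lost in 4 of 10 other settings, and with doxorubicin ID2 had 52.7 CPM in U2OS against 114 CPM in MDA-MB231. BMP4 (-1.37) and the TGF-beta receptor genes TGFBR1, TGFBR2 and TGFBR3, named after their values were seen, were lower in U2OS. GREM1, a secreted BMP antagonist, had 60.7 CPM in U2OS, against 0.197 and 0 CPM in MDA-MB231. INHBB, a subunit of activin B, had 2 reads in U2OS, against 433 and 346 in MDA-MB231 (184-fold lower, 95% counting interval 50.8 to 1523). Of 37 WNT pathway genes tested, 15 were higher, 7 lower and 15 not called (59.5% called). WNT5A, a ligand of the non-canonical branch, had 107 CPM in U2OS, against 0.629 and 0.679 CPM in MDA-MB231 (7.35 ± 0.27, edgeR adjusted p = 7.69e-07), and the secreted inhibitors DKK3 and SFRP1 were higher by 6.13 ± 0.21 and 5.22 ± 0.40. DKK1, which blocks the WNT co-receptor LRP6 and restrains bone formation, had 2.08 CPM in U2OS, against 531 and 593 CPM in MDA-MB231 (-8.07 ± 0.32, edgeR adjusted p = 8.49e-07).

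HOX genes, which set position along the body axis, gave each line its own pattern. All 8 HOXA genes tested were higher in U2OS, as were 7 of 8 HOXC genes and 5 of 8 HOXB genes; the remaining members of these clusters tested were not called. The HOXA median was 8.29, or 5.06 with the 5 genes at 0 reads in both MDA-MB231 libraries set to their bound. HOXA10 had 314 reads in U2OS, against 1 and 0 in MDA-MB231 (664-fold, 95% counting interval 118 to 26315). HOXC10 had 633 reads in U2OS, against 1 and 0 in MDA-MB231 (1339-fold, interval 239 to 52965), and HOXC13 and HOXB13 were at 0 in both MDA-MB231 libraries and at least 246-fold and 143-fold higher in U2OS. The HOXB cluster was not silent in MDA-MB231: HOXB7 had 31 CPM in U2OS, against 1.42 and 1.23 CPM in MDA-MB231 (4.53 ± 0.32). HOXB9, singled out after its values were seen, had 47.7 CPM in U2OS, against 45 and 45.2 CPM in MDA-MB231 and was not called (0.08 ± 0.20). HOXD was split, as HOXD8 and HOXD9 were higher in U2OS whereas HOXD1, HOXD3 and HOXD4 were lower (HOXD3, HOXD4 and HOXD9 also named after their values were seen). HOXD1 had 0.254 CPM in U2OS, against 7.2 and 5.43 CPM in MDA-MB231 (-4.61 ± 0.66). Antisense transcripts run through these clusters, and no source states the strand setting of the counting, so that their reads cannot be told apart from those of the HOX genes.

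**Figure D3:**
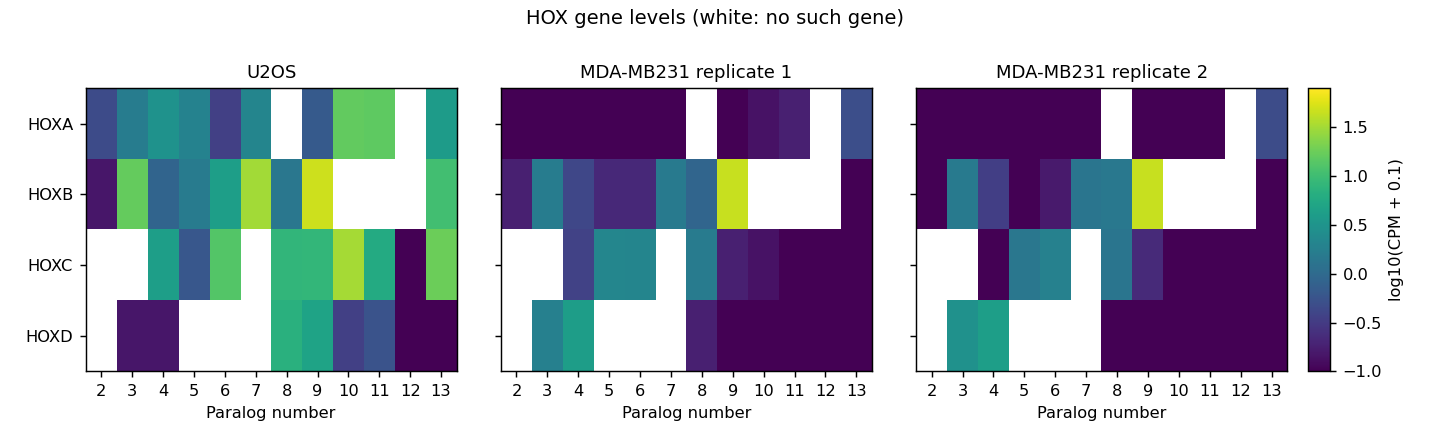
Colour gives log10 of CPM plus 0.1 for each HOX gene (rows are the 4 clusters, columns paralogs from 2 to 13, white where the cluster has no such gene) in the U2OS vehicle library and MDA-MB231 vehicle replicates 1 and 2. HOXA10, HOXA11, HOXC10 and HOXC13 carry reads in U2OS and almost none in MDA-MB231, HOXB9 is alike in all 3 libraries, and HOXD3 and HOXD4 have more reads in MDA-MB231.

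Mesenchymal genes were expressed in both lines, with a different set in each. Of 23 tested, 15 were higher in U2OS, 4 lower and 4 not called (82.6% called, median 2.47). VIM, the mesenchymal intermediate filament, had 1835 CPM in U2OS, against 2373 and 2117 CPM in MDA-MB231 and was not called (-0.29 ± 0.24, edgeR adjusted p = 0.357). CDH2, or N-cadherin, had 163 CPM in U2OS, against 4.37 and 5.37 CPM in MDA-MB231 (5.08 ± 0.21, edgeR adjusted p = 9.65e-07). The limb mesenchyme factors PRRX1 and TBX3 were higher by 4.85 ± 0.43 and 8.38 ± 0.57, and PRRX2 was at 0 reads in MDA-MB231 and at least 97.3-fold higher. ZEB1, a repressor of E-cadherin, had 45.7 CPM in U2OS, against 97.8 and 93.5 CPM in MDA-MB231 (-1.07 ± 0.18, edgeR adjusted p = 0.00187), a call lost in the fit of the 8 drug libraries (edgeR adjusted p = 0.118) and in the fit without the U2OS vehicle library. NT5E, the surface enzyme CD73, had 87.5 CPM in U2OS, against 636 and 704 CPM in MDA-MB231 (-2.94 ± 0.23). TWIST1 had 34 reads in U2OS, against 2 and 0 in MDA-MB231 (36-fold, 95% counting interval 9.22 to 309).

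Basal breast markers did not fall on the side of the breast line as a group. Of 28 tested, 9 were higher in U2OS, 12 lower and 7 not called (75% called, median -0.63). Several keratins were higher in the osteosarcoma line. KRT17, a keratin of basal and stressed epithelium, had 506 CPM in U2OS, against 1.14 and 3.76 CPM in MDA-MB231 (7.79 ± 0.44, edgeR adjusted p = 3.63e-06). KRT81, a hair keratin found in basal breast cancer lines, had 597 CPM in U2OS, against 152 and 184 CPM in MDA-MB231 (1.83 ± 0.20). Outside the basal list, the keratins of simple epithelia KRT8 and KRT18 were higher by 1.16 ± 0.19 and 0.87 ± 0.20. KRT7, also outside it, had 277 CPM in U2OS, against 267 and 327 CPM in MDA-MB231 and was not called. S100A2, a calcium-binding protein of basal cells, had 532 CPM in U2OS, against 26.2 and 15.4 CPM in MDA-MB231 (4.67 ± 0.28), and TRIM29 had 12.6 CPM in U2OS, against 0.157 and 0 CPM in MDA-MB231. The classical basal keratins were near absent from both lines, since KRT5 had 13 reads in U2OS, against 0 and 0 in MDA-MB231, and KRT14 had 8 reads in U2OS, against 0 and 2 in MDA-MB231. The basal type in the MDA-MB231 label was thus not visible in these keratins.

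Other members of the basal list were lower in U2OS, among them LAMA3, described above. EGFR, the epidermal growth factor receptor, had 101 CPM in U2OS, against 291 and 510 CPM in MDA-MB231 (-1.99 ± 0.33, edgeR adjusted p = 0.00159). CD44, the hyaluronan receptor, had 631 CPM in U2OS, against 1297 and 1030 CPM in MDA-MB231 (-0.88 ± 0.24, edgeR adjusted p = 0.017). The caveolin gene CAV1 had 314 CPM in U2OS, against 511 and 546 CPM in MDA-MB231 (-0.75 ± 0.20), and the receptor kinase gene AXL, also called lower, had 577 CPM in U2OS, against 1080 and 1229 CPM in MDA-MB231. MET had 249 CPM in U2OS, against 288 and 328 CPM in MDA-MB231 and was not called. TP63, the transcription factor of basal epithelium, had 4 reads in U2OS, against 30 and 8 in MDA-MB231, and was not called (-2.05 ± 1.03, edgeR adjusted p = 0.141).

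The luminal hormone receptors were near absent from both lines, and other luminal genes lay on both sides. The oestrogen and progesterone receptor genes ESR1 and PGR had at most 6 reads in any of the 3 libraries and were not tested, and ERBB2 was not called (-0.54 ± 0.21). Of 17 luminal markers tested, 4 were higher in U2OS, 6 lower and 7 not called (58.8% called). Among the higher members, MUC1 had 10.9 CPM in U2OS, against 2.71 and 1.11 CPM in MDA-MB231 (2.47 ± 0.52). CA12 had 56.4 CPM in U2OS, against 9.91 and 14.7 CPM in MDA-MB231 (2.20 ± 0.27). KRT8 and KRT18, described above, are also on this list and were higher. SPDEF, an ETS factor of luminal and goblet cells, had 2 reads in U2OS, against 2082 and 1453 in MDA-MB231 (836-fold lower, 95% counting interval 231 to 6903). AGR2, a secretory-pathway disulphide isomerase, had 2 reads in U2OS, against 147 and 151 in MDA-MB231, and the melanosome and secretory adaptor MLPH had 4.88 CPM in U2OS, against 82.2 and 92.6 CPM in MDA-MB231 (-4.16 ± 0.25). GATA3, the luminal master regulator, had 2.39 CPM in U2OS, against 8.14 and 6.73 CPM in MDA-MB231 (-1.64 ± 0.44, edgeR adjusted p = 0.0163), a call lost in 6 of 11 other settings.

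Of 26 epithelial adhesion and splicing genes tested, 7 were higher in U2OS, 11 lower and 8 not called (69.2% called). CDH1, or E-cadherin, was near the limit of detection everywhere, with 10 reads in U2OS, against 10 and 28 in MDA-MB231. SPINT2, an inhibitor of epithelial surface proteases, had 2.74 CPM in U2OS, against 213 and 237 CPM in MDA-MB231 (-6.35 ± 0.27, edgeR adjusted p = 9.98e-07). The tight-junction claudin CLDN7 had 3 reads in U2OS, against 1004 and 331 in MDA-MB231. The surface adhesion molecule gene EPCAM had 3.25 CPM in U2OS, against 10.1 and 10.7 CPM in MDA-MB231 (-1.68 ± 0.38). EPPK1, a plakin that binds keratin filaments, was higher in U2OS by 6.58 ± 0.60, and the epithelial transcription factor ELF3 by 2.85 ± 0.33. GRHL2 and OVOL1 had 0 reads in all 3 libraries.

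Target genes of the p53 pathway were mostly higher in U2OS. Of 39 p53 targets tested, 26 were higher in U2OS, 3 lower and 10 not called (74.4% called, median 1.71). MDM2, the ubiquitin ligase that degrades p53, had 319 CPM in U2OS, against 78.9 and 85 CPM in MDA-MB231 (1.96 ± 0.17, edgeR adjusted p = 4.27e-05). The antiproliferative gene BTG2 had 53.2 CPM in U2OS, against 0.393 and 0.185 CPM in MDA-MB231 (7.41 ± 0.37). EDA2R, a receptor of the TNF family, had 812 reads in U2OS, against 3 and 0 in MDA-MB231 (572-fold, 95% counting interval 195 to 2782). PHLDA3, a repressor of AKT, had 78.7 CPM in U2OS, against 6.17 and 4.75 CPM in MDA-MB231 (3.84 ± 0.24). The DNA damage recognition gene XPC, the mitochondrial reductase FDXR and the ribosomal protein homologue RPS27L were higher by 2.66 ± 0.21, 2.93 ± 0.21 and 2.50 ± 0.20.

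CDKN1A, which encodes the cell cycle inhibitor p21, was called higher with vehicle but not in every drug pair. It had 261 CPM in U2OS, against 150 and 103 CPM in MDA-MB231 (1.05 ± 0.23, edgeR adjusted p = 0.00631), and passed the 2-fold rule against replicate 2 but not replicate 1. Among the drug-treated libraries it had 90.9 CPM in U2OS against 281 CPM in MDA-MB231 with doxorubicin, and 516 CPM in U2OS against 999 CPM in MDA-MB231 with etoposide. With MMS it had 779 CPM in U2OS against 301 CPM in MDA-MB231, and with paclitaxel 226 CPM in U2OS against 156 CPM in MDA-MB231. The order of the lines for CDKN1A therefore turned round with both topoisomerase II poisons, and in the fit of the 8 drug libraries it was -0.18 (edgeR adjusted p = 0.767). Of the 26 p53 targets called higher, 24 were higher in U2OS in all 4 drug pairs. Most genes that passed the 2-fold rule, a set chosen by size, kept their side: of all 1547 that were 2-fold higher with vehicle, 1460 were higher in all 4 pairs.

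The CDKN2A locus on chromosome 9 was silent in MDA-MB231. CDKN2A, whose symbol covers both the p16 and ARF transcripts, had 1128 reads in U2OS, against 3 and 0 in MDA-MB231 (795-fold, 95% counting interval 271 to 3862). Its neighbour CDKN2B, which encodes the related inhibitor p15, had 860 reads in U2OS, against 1 and 0 in MDA-MB231, and MTAP, an enzyme of methionine salvage, had 2263 reads in U2OS, against 4 and 0 in MDA-MB231. In the order of genes in RefSeq (GRCh38.p14) the run of genes silent in MDA-MB231 and expressed in U2OS went from KLHL9 through MTAP, CDKN2A and CDKN2B to DMRTA1 and ELAVL2. The type I interferon genes that lie between KLHL9 and MTAP had at most 6 reads in any of the 3 libraries and were passed over. On 1 side the run ended at KIAA1797 (now FOCAD), with 64.2 CPM in U2OS, against 3.78 and 2.65 CPM in MDA-MB231, and on the other at TUSC1, with 21.4 CPM in U2OS, against 8.34 and 12.3 CPM in MDA-MB231. The run was looked for after the values had been seen. Read counts cannot tell a lost gene from a silenced one, and copy number was not measured.

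Other RB pathway genes lay on both sides, with 10 of 20 higher in U2OS, 5 lower and 5 not called (75% called). CCND2, a D-type cyclin, had 175 CPM in U2OS, against 4.48 and 3.64 CPM in MDA-MB231 (5.41 ± 0.21, edgeR adjusted p = 7.89e-07), and cyclin E gene CCNE1 had 89.3 CPM in U2OS, against 20.1 and 17.3 CPM in MDA-MB231 (2.25 ± 0.20). CDKN2D, a CDK4 inhibitor outside the locus, had 9.35 CPM in U2OS, against 89.9 and 40.5 CPM in MDA-MB231 (-2.81 ± 0.46).

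Among telomere genes, the RNA of the telomerase gene TERT was lower in U2OS, at low levels in both lines. TERT, the catalytic subunit, had 5 reads in U2OS, against 78 and 61 in MDA-MB231 (-3.71 ± 0.74, edgeR adjusted p = 0.00389). Its largest level, 3.76 CPM in MDA-MB231 replicate 2, was too low for the 2-fold rule. With etoposide it had 0.358 CPM in U2OS against 0.355 CPM in MDA-MB231, while in the other 3 drug pairs it was 2-fold lower in U2OS. Of 21 telomere and alternative-lengthening genes tested, 4 were higher, 4 lower and 13 not called (38.1% called, close to the 42.6% of all genes). ATRX, a chromatin remodeller whose protein is lost in U2OS, had 259 CPM in U2OS, against 103 and 128 CPM in MDA-MB231 (1.17 ± 0.19, edgeR adjusted p = 0.00145), so its reads were not lower. BLM, a helicase used in recombination at telomeres, was higher by 0.95 ± 0.22. The template RNA gene TERC had at most 3 reads in every library and was not tested.

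Feedback genes of the RAS-ERK pathway were lower in U2OS. Of 25 RAS-ERK output genes tested, 17 were lower, 1 higher and 7 not called (72% called, median -1.60). DUSP6, a phosphatase that switches ERK off, had 3.61 CPM in U2OS, against 309 and 373 CPM in MDA-MB231 (-6.56 ± 0.30, edgeR adjusted p = 1.38e-06). DUSP4, a nuclear phosphatase of the same family, had 24.1 CPM in U2OS, against 683 and 697 CPM in MDA-MB231 (-4.84 ± 0.26). SPRY4, a feedback inhibitor upstream of RAS, had 1.27 CPM in U2OS, against 108 and 106 CPM in MDA-MB231 (-6.39 ± 0.28, edgeR adjusted p = 9.98e-07). The EGFR ligand gene HBEGF was lower by a log2 value of -3.15 ± 0.23, PHLDA1 by -3.62 ± 0.26 and the ETS factor gene ETV1 by -3.07 ± 0.25. With doxorubicin the gap narrowed for several of these genes: DUSP4 had 28.4 CPM in U2OS against 49.6 CPM in MDA-MB231, and SPRY2, another feedback inhibitor, had 27.9 CPM in U2OS against 27 CPM in MDA-MB231. Of the 17 called lower, 12 were lower in U2OS in all 4 drug pairs, and 15 members of the list were 2-fold lower with vehicle. The count of 1307 of all 1414 genes 2-fold lower with vehicle is for genes chosen by size, not by the test. The 2 counts are therefore not like for like.

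Inflammatory chemokine and cytokine genes were lower in U2OS, and the promoters of several carry a shared NF-kB motif. The stretches of 250 bases before the start of IL8, CXCL1 and ICAM1 are shown because these strongly differing genes each hold that motif. They come from RefSeq (GRCh38.p14) at chr4:73740319-73740568, chr4:73869143-73869392 and chr19:10270870-10271119, all on the plus strand, with matches to GGAATTTCC on either strand and, in IL8, the AP-1 motif TGACTCA in capitals.
IL8: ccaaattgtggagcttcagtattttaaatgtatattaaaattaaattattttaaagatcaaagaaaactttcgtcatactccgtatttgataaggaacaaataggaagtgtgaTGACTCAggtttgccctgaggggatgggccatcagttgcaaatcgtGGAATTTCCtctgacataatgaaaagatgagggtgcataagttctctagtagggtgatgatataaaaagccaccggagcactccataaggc
CXCL1: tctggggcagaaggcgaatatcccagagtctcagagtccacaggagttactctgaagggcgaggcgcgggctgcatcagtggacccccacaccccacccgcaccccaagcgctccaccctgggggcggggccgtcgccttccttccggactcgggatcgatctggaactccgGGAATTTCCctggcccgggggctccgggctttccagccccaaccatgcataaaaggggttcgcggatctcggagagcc
ICAM1: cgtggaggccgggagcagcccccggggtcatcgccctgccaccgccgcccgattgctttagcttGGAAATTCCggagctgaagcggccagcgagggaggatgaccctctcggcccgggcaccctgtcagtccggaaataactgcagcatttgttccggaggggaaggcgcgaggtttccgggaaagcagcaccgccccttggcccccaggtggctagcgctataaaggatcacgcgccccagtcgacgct
The NF-kB letters began 91 bases before the start in IL8, 78 in CXCL1 and 186 in ICAM1, where they read in the reverse direction, and the AP-1 letters 137 bases before the start in IL8. The NF-kB letters were present in 0.386% of the 15524 promoters matched to a gene in the files and in 9 of 26 promoters of the cytokine, chemokine and NF-kB target list. Those 9 were 7 of the 15 promoters of members lower in U2OS and 2 of the 11 of other members, and the letters were in 0.917% of promoters of all genes lower in U2OS, 0.456% of those higher and 0.275% of those not called. A match is a description of the letters and not evidence of binding, and the list was drawn up in part from known NF-kB targets.

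Of the 29 members of that list tested, 18 were lower in U2OS, 3 higher and 8 not called (72.4% called, median -1.46). IL8 (CXCL8), which attracts neutrophils, had 64.6 CPM in U2OS, against 1211 and 542 CPM in MDA-MB231 (-3.76 ± 0.48, edgeR adjusted p = 0.000358). Its relative CXCL1 had 43.7 CPM in U2OS, against 626 and 337 CPM in MDA-MB231 (-3.46 ± 0.39). ICAM1, the leukocyte adhesion receptor, had 7.67 CPM in U2OS, against 368 and 359 CPM in MDA-MB231 (-5.56 ± 0.26, edgeR adjusted p = 1.45e-06). The chemokine values were higher in MDA-MB231 replicate 1 than in replicate 2, but both stood well above U2OS. The colony-stimulating factor genes CSF3 and CSF2 were also higher in MDA-MB231 replicate 1 than in replicate 2: CSF3 had 7 reads in U2OS, against 2880 and 681 in MDA-MB231, and CSF2 had 3.76 CPM in U2OS, against 121 and 45.5 CPM in MDA-MB231. CSF1, the macrophage growth factor, had 19.8 CPM in U2OS, against 293 and 300 CPM in MDA-MB231 (-3.91 ± 0.23), and IL1B had 3.51 CPM in U2OS, against 59.7 and 69 CPM in MDA-MB231 (-4.19 ± 0.28). IL18, which was named after its values were seen as 1 of the 3 higher members beside IL33 and TSLP, had 140 CPM in U2OS, against 28.2 and 30.2 CPM in MDA-MB231 (2.26 ± 0.17).

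Interferon-related and antigen presentation genes were also mostly lower in U2OS. Of 42 tested, 29 were lower, 4 higher and 9 not called (78.6% called, median -1.35). The class II genes were near silent in U2OS. CD74, the class II invariant chain, had 0.457 CPM in U2OS, against 312 and 288 CPM in MDA-MB231 (-9.34 ± 0.34, edgeR adjusted p = 7.69e-07), and HLA-DRA had 0.305 CPM in U2OS, against 113 and 100 CPM in MDA-MB231 (-8.42 ± 0.35). CIITA, the activator that class II genes depend on, had 0 reads in U2OS, against 303 and 179 in MDA-MB231 (at least 75.3-fold lower). OAS2, an antiviral synthetase, had 0.61 CPM in U2OS, against 41.2 and 30.4 CPM in MDA-MB231 (-5.86 ± 0.42), and the immunoproteasome subunit PSMB9 had 2.39 CPM in U2OS, against 24.2 and 20.9 CPM in MDA-MB231 (-3.24 ± 0.34). The higher members included IFI44 (0.88 ± 0.24), IFI44L (1.96 ± 0.63) and OAS1 (2.90 ± 0.50), so the list did not move as a block. The class I genes HLA-B (-0.13 ± 0.22) and HLA-C (0.09 ± 0.18) were not called. These class I genes and the higher members were chosen after their values were seen.

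The interferon-stimulated response element, searched on both strands as TTTC, any 2 bases and TTTC again, was present in 2.68% of all promoters and in 17 of 30 promoters of that list, 11 of the 19 of members lower in U2OS and 6 of the 11 of the rest. The shares in the lower members and in the rest were thus close. IFIT3 and BST2, antiviral effector genes chosen after the search because each holds a pair of matches, are shown from RefSeq (GRCh38.p14), IFIT3 on the plus strand at chr10:89327747-89327996 and BST2 on the minus strand at chr19:17405631-17405880, with the matches in capitals.
IFIT3: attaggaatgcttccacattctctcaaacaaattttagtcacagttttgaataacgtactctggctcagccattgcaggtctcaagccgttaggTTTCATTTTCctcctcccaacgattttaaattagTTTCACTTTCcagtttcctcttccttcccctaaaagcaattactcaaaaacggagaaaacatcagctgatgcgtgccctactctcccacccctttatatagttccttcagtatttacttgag
BST2: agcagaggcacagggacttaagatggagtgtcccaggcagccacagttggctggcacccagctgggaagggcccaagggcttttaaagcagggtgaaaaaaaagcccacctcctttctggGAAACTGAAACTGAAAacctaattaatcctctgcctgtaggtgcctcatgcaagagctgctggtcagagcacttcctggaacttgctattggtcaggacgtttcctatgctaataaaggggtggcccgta
The matches began 156 and 122 bases before the start in IFIT3, and 130 and 124 bases before it in BST2, where they overlap and read in the reverse direction. IFIT3 had 23.3 CPM in U2OS, against 128 and 148 CPM in MDA-MB231 (-2.56 ± 0.21, edgeR adjusted p = 2.87e-05). BST2 had 57.9 CPM in U2OS, against 171 and 126 CPM in MDA-MB231 (-1.36 ± 0.23).

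Sensors of cytosolic DNA and RNA were lower in U2OS or not called. Of 18 tested, 12 were lower and 6 not called (66.7% called, median -1.23). MB21D1, which encodes the DNA sensor cGAS, had 18.3 CPM in U2OS, against 57.6 and 57.6 CPM in MDA-MB231 (-1.65 ± 0.22, edgeR adjusted p = 0.00043). TMEM173, its partner STING, had 14.9 CPM in U2OS, against 28.7 and 22.3 CPM in MDA-MB231 (-0.78 ± 0.27, edgeR adjusted p = 0.0467), a call that was lost in 4 of 11 other settings. The RNA sensor gene DDX58 (RIG-I) had 34.4 CPM in U2OS, against 137 and 144 CPM in MDA-MB231 (-2.03 ± 0.19), and its adaptor MAVS had 88.8 CPM in U2OS, against 249 and 256 CPM in MDA-MB231 (-1.51 ± 0.19). IRF7, an interferon regulatory factor, had 0.356 CPM in U2OS, against 11.7 and 13.5 CPM in MDA-MB231 (-5.12 ± 0.51), and the inflammasome sensor AIM2 had 1 read in U2OS, against 137 and 59 in MDA-MB231. Of the 12 called lower, 11 were lower in U2OS in all 4 drug pairs, and 9 members of the list were 2-fold lower with vehicle. The count of 1307 of all 1414 genes 2-fold lower with vehicle is for genes chosen by size, so it is not like for like.

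Receptor tyrosine kinases divided between the lines, with 14 of 42 higher in U2OS, 12 lower and 16 not called (61.9% called). ROR2, a WNT5A receptor, was at 0 reads in both MDA-MB231 libraries and at least 204-fold higher in U2OS. Its relative ROR1 had 4.32 CPM in U2OS, against 35.5 and 60.6 CPM in MDA-MB231 (-3.47 ± 0.39), so the pair lay on opposite sides. FGFR2 had 174 reads in U2OS, against 1 and 0 in MDA-MB231, and FGFR4 had 35 CPM in U2OS, against 1.34 and 2.41 CPM in MDA-MB231 (4.25 ± 0.37). IGF1R, the receptor for insulin-like growth factors, had 200 CPM in U2OS, against 54.3 and 66.7 CPM in MDA-MB231 (1.72 ± 0.19). KDR, a VEGF receptor, had 2 reads in U2OS, against 305 and 208 in MDA-MB231 (121-fold lower, 95% counting interval 33.4 to 1004). ALK, KIT, RET, NTRK3 and EPHA1 had at most 3 reads in every library.

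Binding proteins of the IGF axis were exchanged between the lines. IGFBP5, abundant in bone, had 2138 reads in U2OS, against 3 and 0 in MDA-MB231 (1507-fold, 95% counting interval 515 to 7315). IGFBP4 had 29 CPM in U2OS, against 2241 and 2765 CPM in MDA-MB231 (-6.43 ± 0.35, edgeR adjusted p = 2.86e-06), and IGFBP1 had 0.203 CPM in U2OS, against 34.6 and 23.6 CPM in MDA-MB231. The oncofetal RNA-binding protein IGF2BP1 had 17.9 CPM in U2OS, against 0.236 and 0.185 CPM in MDA-MB231 (6.34 ± 0.47), whereas IGF2BP3 was lower (-1.44 ± 0.22). HMGA2, a chromatin protein repressed by let-7, had 109 CPM in U2OS, against 129 and 121 CPM in MDA-MB231 and was not called. In all, 5 of 18 genes tested on this axis were higher, 8 lower and 5 not called (72.2% called).

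Each line had its own matrix-degrading enzymes. Of 37 invasion proteases and inhibitors tested, 12 were higher in U2OS, 16 lower and 9 not called (75.7% called). MMP2, a gelatinase, had 207 CPM in U2OS, against 0.708 and 0 CPM in MDA-MB231 (8.92 ± 0.50), and MMP16, a membrane-type metalloprotease, was higher by 6.14 ± 0.38. MMP1, the interstitial collagenase, had 45.5 CPM in U2OS, against 1533 and 1329 CPM in MDA-MB231 (-4.97 ± 0.29, edgeR adjusted p = 4.3e-06). The membrane protease ADAM8 had 0.813 CPM in U2OS, against 202 and 198 CPM in MDA-MB231 (-7.93 ± 0.30), while its relative ADAM12 had 71.9 CPM in U2OS, against 0.315 and 1.11 CPM in MDA-MB231 (6.78 ± 0.44). F3, the tissue factor that starts coagulation, had 5.13 CPM in U2OS, against 649 and 692 CPM in MDA-MB231 (-7.03 ± 0.30, edgeR adjusted p = 9.98e-07), and the anticoagulant receptor thrombomodulin (THBD) had 1.32 CPM in U2OS, against 90.8 and 93 CPM in MDA-MB231. SERPINB2, a plasminogen activator inhibitor, had 3 reads in U2OS, against 39 and 520 in MDA-MB231, which makes its size depend on the MDA-MB231 library.

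Genes of the Hippo pathway and targets of YAP were mostly lower in U2OS, with NF2, TEAD2 and TEAD4 called higher. NF2, a tumour suppressor that activates the pathway, had 296 CPM in U2OS, against 13.4 and 18.7 CPM in MDA-MB231 (4.21 ± 0.22, edgeR adjusted p = 2.43e-06). The matricellular YAP target CYR61 had 280 CPM in U2OS, against 1522 and 1346 CPM in MDA-MB231 (-2.36 ± 0.25), and ANKRD1 had 128 CPM in U2OS, against 944 and 1281 CPM in MDA-MB231 (-3.12 ± 0.29). Of 21 tested, 12 were lower, 3 higher and 6 not called (71.4% called, median -0.61). Beside NF2, the higher members were TEAD2 and TEAD4, with log2 fold changes of 0.60 to 1.33 and 1.00 to 1.26 over the other settings. In all 4 drug pairs 6 of the 12 called lower were lower in U2OS. Only 5 members of the list were 2-fold lower with vehicle. The count of 1307 of all 1414 genes 2-fold lower with vehicle is for genes chosen by size and is not like for like. The same count over all genes called lower was not made. Of 20 actin-binding genes tested, 7 were higher, 1 lower and 12 not called (40% called, against 42.6% of all genes). TPM2, a muscle-type tropomyosin, had 370 CPM in U2OS, against 14.1 and 7.65 CPM in MDA-MB231 (5.07 ± 0.30), and TAGLN was higher by 3.63 ± 0.25.

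Cancer-testis genes, normally silent outside germ cells, differed between the lines and between the MDA-MB231 libraries. Their CPM summed to 1095 in U2OS, against 20.9 and 88.8 in MDA-MB231. Of 16 tested, 8 were higher, 3 lower and 5 not called (68.8% called), and 12 of the 30 listed had at most 3 reads in every library. PRAME had 491 CPM in U2OS, against 0.551 and 0 CPM in MDA-MB231 (10.51 ± 0.47, edgeR adjusted p = 1.25e-06). MAGEA1 had 127 CPM in U2OS, against 0.157 and 0 CPM in MDA-MB231, and MAGEB2 had 96.8 CPM in U2OS, against 0.275 and 0.74 CPM in MDA-MB231. PAGE5 had 0 reads in U2OS, against 108 and 87 in MDA-MB231 (at least 31.5-fold lower). MAGEA12, named after its values were seen, had 98 CPM in U2OS, against 0.118 and 21.9 CPM in MDA-MB231 and was not called. MAGE genes are near-identical copies of one another and their split of reads is uncertain.

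**Figure D4:**
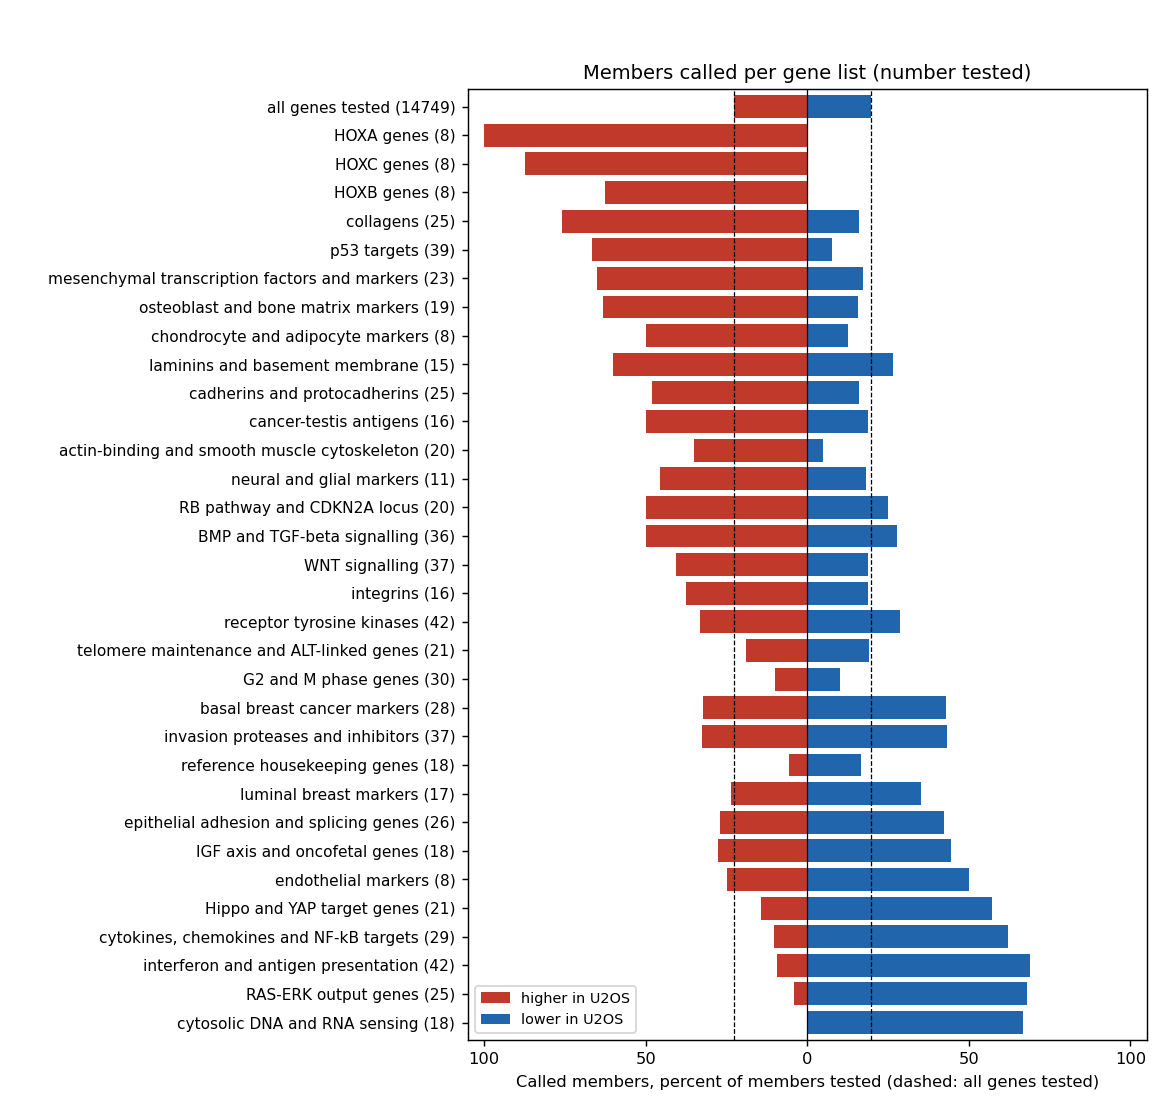
Bars give the percent of tested members of each gene list that were called higher in U2OS (red, to the left) and lower in U2OS (blue, to the right), for lists with at least 8 members tested (number tested in parentheses). Dashed lines mark the 22.8% higher and 19.8% lower of all 14749 genes tested. HOXA genes reach 100% higher at the top, RAS-ERK output genes and cytosolic sensors lie mostly to the lower side at the bottom, and G2 and M phase genes have few calls on either side.

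Dividing-cell and housekeeping genes showed the fewest differences. Of 30 G2 and M phase genes, 3 were higher in U2OS, 3 lower and 24 not called, so that 20% were called against 42.6% of all genes, with a median of -0.22. HMMR, a spindle and hyaluronan-binding protein, had 122 CPM in U2OS, against 21.5 and 26.2 CPM in MDA-MB231 (2.36 ± 0.20), and the kinase AURKB was lower (-1.22 ± 0.22). Of 18 housekeeping genes 1 was higher, 3 lower and 14 not called (22.2% called, median -0.04). GAPDH, often used as a reference, had 3999 CPM in U2OS, against 2527 and 2272 CPM in MDA-MB231 (0.74 ± 0.24, edgeR adjusted p = 0.0334).

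Lists of markers of other cell types held both undetected and expressed genes. Of 15 blood and immune markers 8 had at most 3 reads in every library, including CD3E, MS4A1 and HBB, and their CPM summed to 22.6 in U2OS, against 136 and 120 in MDA-MB231. CD68 made up most of that sum, with 21.3 CPM in U2OS, against 126 and 113 CPM in MDA-MB231. The pan-leukocyte gene PTPRC, named after its values were seen, had 5 reads in U2OS, against 9 and 8 in MDA-MB231, beside the interferon, class II and cytokine differences described above. Skeletal muscle markers summed to 47.5 CPM in U2OS, against 40.8 and 25.7 in MDA-MB231, with 8 of 12 at no more than 3 reads everywhere. Endothelial markers summed to 34.7 CPM in U2OS, against 103 and 155 in MDA-MB231. Among them ROBO4 had 3.51 CPM in U2OS, against 82.3 and 124 CPM in MDA-MB231, and ERG had 156 reads in U2OS, against 1 and 1 in MDA-MB231, while 4 of 8 tested were lower and 2 higher. Neural and glial markers summed to 372 CPM in U2OS, against 339 and 304 in MDA-MB231. Among them the axonal filament gene NEFL had 65.9 CPM in U2OS, against 0.197 and 0 CPM in MDA-MB231, and the myelin gene MBP had 3.91 CPM in U2OS, against 128 and 143 CPM in MDA-MB231. Of 8 chondrocyte and adipocyte genes tested 4 were higher, among them LPL (4.65 ± 0.38), and 1, PPARG, was lower (-1.12 ± 0.30).

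The same difference was measured again in the 8 drug-treated libraries, which the vehicle comparison did not use. Each drug gives 1 U2OS library against 1 MDA-MB231 library, so a ratio there holds both the line difference and any unequal drug response. Of the 1547 genes that were 2-fold higher in U2OS with vehicle, 1460 had a positive ratio in all 4 pairs and 984 were 2-fold higher in all 4. Of the 1414 that were 2-fold lower, 1307 had a negative ratio in all 4 pairs and 714 were 2-fold lower in all 4. Across both directions 18 genes were 2-fold to the opposite side with at least 1 drug. A fit of the 8 drug libraries alone tested 6256 of the called genes and called 5429 of them in the same direction. SPARC had 1950 CPM in U2OS against 2.3 CPM in MDA-MB231 with doxorubicin, and 607 CPM in U2OS against 0.904 CPM in MDA-MB231 with etoposide. It had 648 CPM in U2OS against 0.16 CPM in MDA-MB231 with MMS, and 850 CPM in U2OS against 1.89 CPM in MDA-MB231 with paclitaxel, so every U2OS value stood far above every MDA-MB231 value. DUSP6 kept its direction but not its size, with 33.5 CPM in U2OS against 145 CPM in MDA-MB231 with doxorubicin and 7.74 CPM in U2OS against 481 CPM in MDA-MB231 with etoposide.

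**Figure D5:**
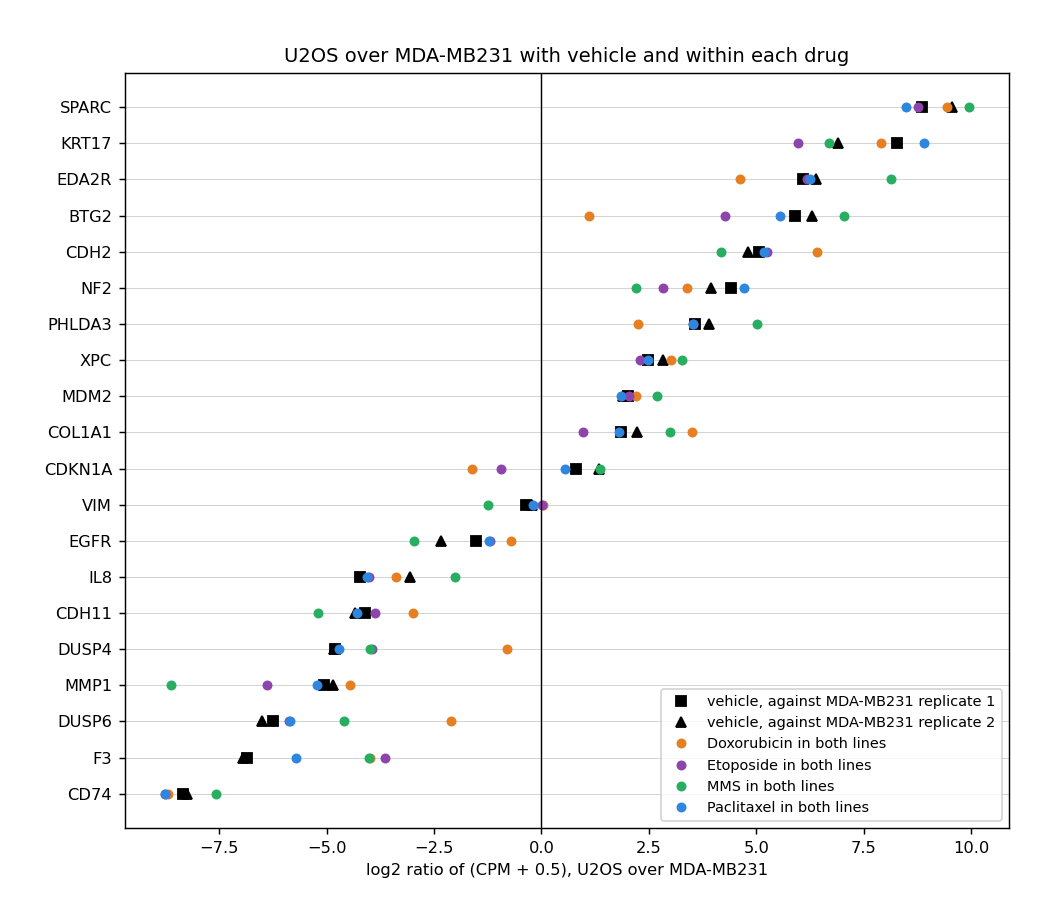
Log2 ratios of CPM plus 0.5, U2OS over MDA-MB231 (x axis), for 20 named genes (rows), with vehicle against MDA-MB231 replicate 1 (black squares) and replicate 2 (black triangles) and within each of the 4 drugs (coloured circles). SPARC and CD74 stay far on their own side in every comparison, CDKN1A changes side with doxorubicin and etoposide, and DUSP4, DUSP6 and BTG2 move toward 0 with doxorubicin.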

How the data were processed

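The authors deposited, for each library, whole-number counts of reads for 23228 gene symbols and 5 summary rows, which stayed out of library sizes and tests (41.5% of U2OS reads, 39.2% and 38.7% of MDA-MB231 reads). Per the submitters' processing notes, base calls came from CASAVA 1.8.2, alignment from TopHat2 2.0.8b and counting from HTSeq (version not given), and builds hg19 and mm9 are named. Genes sharing reads with near-identical copies are uncertain. Counts were fitted with edgeR 4.0.16 (R 4.3.3; TMM, filterByExpr, quasi-likelihood F test, 14749 genes, 1 residual degree of freedom, prior degrees of freedom 7.8) and Benjamini-Hochberg adjusted. SE is the log2 fold change over the square root of F. The fit was tested on simulated counts of 14425 genes, where it recovered 45% of 2-fold and 89% of 4-fold changes with 14 false calls. Changes were planted only in a small set of genes above a minimum CPM, far fewer than were called in the data. The simulated U2OS library was drawn with the spread of the fit. The simulation therefore could not test whether U2OS varies like MDA-MB231, and its false calls do not measure those in the data.

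A gene at 0 reads in a group was set to 3 reads over the group for bounds. Intervals are exact binomial 95% intervals. Intervals and floors cover counting error only. Genes were named by a rule: the top 12 and bottom 12 called genes that were 2-fold apart from both MDA-MB231 libraries and reached 20 CPM, in each list up to 8 called members of largest change that reached 5 CPM, undetected members, and a fixed set of identity genes. Others are marked in the text, and some genes the rule names are not reported here. The 35 lists hold 821 genes, 820 found (AJUBA was not). Members and lists were chosen with earlier results of these data known. Promoters are RefSeq GRCh38.p14. Alternatives were DESeq2 1.42.0, limma-voom (limma 3.58.1), other scalings, filters and offsets, other sets of libraries and leaving libraries out.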

Additional observations from a re-analysis of the deposited data

How the results depend on the processing

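The count of genes called, 6281, was 4711 with DESeq2, 6541 with limma-voom, 6090 with DESeq2 size factors, 6235 with total-count scaling, 4731 with a CPM of at least 1 in 2 libraries, 7289 with no filter, 7450 from the 8 drug libraries and 9660 from all 11 libraries, and 8160 to 9126 when 1 vehicle library was left out of the fit of 11. The 3-library fit without 1 of its libraries has no residual degrees of freedom and gave no test. The 2961 genes 2-fold apart against both libraries became 3410 and 3490 without MDA-MB231 replicate 1 and replicate 2. With all 11 libraries, called members numbered 4 for skeletal muscle, 8 for chondrocyte and adipocyte markers and 8 for housekeeping genes. With total-count scaling, 2-fold members numbered 1 for telomere genes, 1 for G2 and M phase genes and 0 for housekeeping genes. Leaving out an MDA-MB231 library gave 1 to 2 such members for blood markers and 1 to 2 for skeletal muscle markers. Of 253 named genes called, 231 kept their call in every one of the 11 alternatives that tested them. CDKN1A reversed to -0.18 in the 8 drug libraries and -0.19 without the U2OS vehicle library, and CENPE, GATA3, SLX4, CDKN1C, ASF1A, TMEM173, SP100 and ID2 lost their calls in 4 or more settings. MMP2 and TWIST1 lost theirs with DESeq2 alone, and SERPINB2 with limma-voom and with the CPM filter. The causes were not tested. No paired analysis was possible because U2OS has 1 vehicle library and the labels carry no replicate numbers shared by the lines; this holds for the vehicle comparison, whereas the fit of the 8 drug libraries has a term per drug and so sets the lines side by side within each drug.

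Depth limits the genes named as near absent, where 3 reads correspond to 0.152 CPM in U2OS and to 0.0721 CPM over both MDA-MB231 libraries.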

Other observations

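Runs of neighbouring genes with the same on or off state were looked for after the values had been seen, in the gene order of RefSeq GRCh38.p14. A gene counted as absent from a line at no more than 4 reads in each of its vehicle libraries. It also needed at least 1 CPM in every vehicle library of the other line. Genes meeting neither state because both lines lacked them were passed over. By this rule 727 genes were absent from MDA-MB231 and 205 from U2OS. These counts are not like for like, as U2OS has 1 vehicle library and MDA-MB231 has 2. Beside the HOXA run of 7 genes and the chromosome 9 run of 6 described above, 5 neighbours on chromosome 19 from LRRC4B to KLK6 were absent from MDA-MB231, as were 5 protocadherin alpha genes on chromosome 5 and HOXC13, HOXC11, HOXC10 and HOXC9 on chromosome 12. Protocadherin alpha genes share exons, so their reads are not independent. The 1 run found to be absent from U2OS held 4 zinc finger genes on chromosome 19, ZNF90, ZNF486, ZNF737 and ZNF626, a related family whose reads may be shared. A second run on chromosome 9, BNC2, CNTLN and SH3GL2, was absent from MDA-MB231 and lies apart from the CDKN2A run, with ADAMTSL1, RRAGA, HAUS6 and RPS6 expressed in both lines between them. RPS6 had 1020 CPM in U2OS, against 685 and 731 CPM in MDA-MB231. Copy number was not measured.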
